A study of Homo sapiens with 6 samples.

Results

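The genes described here are the small genes of the epidermal differentiation region at 1q21: the late cornified envelope genes (LCE), the small proline-rich protein genes (SPRR), the S100A genes, and IVL, LELP1, PRR9, PGLYRP3 and PGLYRP4. They were taken from the count table by symbol alone. The pattern found 50 genes, and SPRR2C was left out because RefSeq lists it as a pseudogene. That left 49 of 38167 genes, of which 16 are S100A, 10 SPRR, 18 LCE and 5 the single genes named above. All 49 lie on chromosome 1 between 151982915 and 153634361 (GRCh38).

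RNA came from small extracellular vesicles in the medium of Cal27 spheroids, an established cell line from a squamous carcinoma of the tongue. Both groups were the same line at day 14, with no other agent in the labels, in Matrigel, a basement membrane gel, at 3 mg/mL (soft) or 12 mg/mL (stiff). Each group had 3 libraries, called biological replicates in the titles. Nothing further says how separate the cultures were, so p-values measure the spread between these samples, which may be technical. The RNA is that of vesicles and not of the cells, and fewer vesicles with a transcript cannot be told apart from less of it per vesicle.

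These genes serve the outer barrier of stratified epithelia. Involucrin, the SPRR proteins and the LCE proteins are cross-linked by transglutaminases into the cornified envelope, the protein shell of dead keratinocytes; LCE genes are known for the outermost layers of skin. S100A genes encode small EF-hand proteins that bind calcium: S100A8 and S100A9 form calprotectin, which sequesters metals and is abundant in neutrophils and stressed epithelia, S100A7 (psoriasin) is antimicrobial, and S100A10 pairs with annexin A2. PGLYRP3 and PGLYRP4 encode secreted proteins that bind bacterial peptidoglycan.

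Many members are recent copies of each other, which limits what a count can say of 1 copy. The first 61 coding bases, the length of 1 read, are shown for 2 sets, from GENCODE release 29 (GRCh38), with capitals where a base differs from the first gene of the set. In the SPRR2 set SPRR2A (chr1:153056675-153056735), SPRR2B (chr1:153070779-153070839), SPRR2D (chr1:153040286-153040346) and SPRR2E (chr1:153093691-153093751), all on the minus strand, had 0 differences and the same run stands for all of them.
SPRR2A: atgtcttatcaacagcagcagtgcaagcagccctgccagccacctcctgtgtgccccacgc
The LCE3 set differs at more bases, although LCE3D and LCE3E still share 12.1% and 12.2% of their windows of this length. LCE3D (chr1:152579876-152579936), LCE3E (chr1:152566148-152566208) and LCE3A (chr1:152623043-152623103) lie on the minus strand, LCE3B (chr1:152613811-152613871) and LCE3C (chr1:152600732-152600792) on the plus strand.
LCE3D: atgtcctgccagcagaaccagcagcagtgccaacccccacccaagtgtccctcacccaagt
LCE3E: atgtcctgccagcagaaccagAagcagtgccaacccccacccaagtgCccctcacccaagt
LCE3A: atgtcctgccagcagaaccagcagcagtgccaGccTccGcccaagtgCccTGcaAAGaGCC
LCE3B: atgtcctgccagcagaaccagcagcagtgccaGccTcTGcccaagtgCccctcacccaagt
LCE3C: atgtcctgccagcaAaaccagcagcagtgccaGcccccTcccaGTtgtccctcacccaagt

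Over whole coding sequences SPRR2A and SPRR2B were 99.5% identical, LCE2C and LCE2D 97.9%, LCE3D and LCE3E 97.1%, SPRR1A and SPRR1B 96.3%, and S100A7 and S100A7A 96.1%. The median pair was 57.1% identical among SPRR genes, 68.5% among LCE genes and 49.03% among S100A genes. Of the 49 members, 24 shared at least 1 window of 61 bases with a transcript of another gene. The share of such windows was highest for SPRR2B (28.7%) and SPRR2A (28.2%), followed by S100A13 (24.0%, with S100A1 and AL162258.1) and LCE2C (20.9%). It was 12.8% for S100A1 and 9.45% for S100A7. LCE3A, LCE3B, LCE3C, S100A2, S100A9, S100A10 and S100A16 shared none. How the authors' counting treated reads that fit several places is not given in the sources used here, so counts of single copies are uncertain for all 24, among them members of the SPRR2, LCE1, LCE2 and S100A7 sets, LCE3D, LCE3E, S100A1 and S100A13. Gene spans also overlap between S100A1 and S100A13 (3606 bp), between S100A7A and S100A8 (6064 bp) and between S100A4 and S100A5 (65 bp).

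A sequence feature that the choice by symbol did not use was found at the starts of most SPRR genes and of a minority of the LCE and S100A genes. RefSeq promoter windows (GRCh38.p14, one window around each listed start) were at hand for 46 members, in 54 windows. The letters TATAAA, with their first base 20 to 40 bases before the start on the gene's own strand, stood in 20 of the 54 (37.0%), against 2.30% of 35116 windows of all genes. They stood in 7 of 8 SPRR windows, 5 of 18 LCE windows and 6 of 23 S100A windows. The letters TGANTCA, searched on both strands of the whole window, a core that AP-1 factors are known to bind, stood in 13 of 54 windows (24.1%, against 7.71% of all), in 6 of 8 SPRR windows and in 0 of 18 LCE windows. A match is a description of these letters and not of a factor's binding. Excerpts of 38 bases show the element, in capitals, at involucrin (IVL, chr1:152908500-152908537, plus strand), SPRR1A (chr1:152984036-152984073, plus), SPRR2A (chr1:153057521-153057558, minus), LCE2A (chr1:152698299-152698336, plus) and the calprotectin genes S100A8 (chr1:153391081-153391118, minus) and S100A9 (chr1:153357809-153357846, plus).
IVL: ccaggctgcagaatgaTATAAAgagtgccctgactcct
SPRR1A: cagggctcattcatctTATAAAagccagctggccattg
SPRR2A: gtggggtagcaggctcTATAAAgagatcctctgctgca
LCE2A: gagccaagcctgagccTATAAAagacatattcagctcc
S100A8: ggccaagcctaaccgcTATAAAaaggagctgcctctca
S100A9: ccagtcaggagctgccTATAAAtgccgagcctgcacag

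Libraries held 2445498 to 2977837 counts, and the members 948 to 1066 of them, or 0.0328% to 0.0433%. Ribosomal RNA genes took 2.97% to 8.87% of counts in soft and 20.02% to 22.9% in stiff libraries (the 8.87% being soft replicate 3), and mitochondrial messengers 1.48% to 1.81% and 0.162% to 0.201%. Levels are given as CPM, counts relative to the library size after TMM, a scaling by the bulk of genes. Markers did not single out the labelled squamous cell type. Squamous epithelial markers summed to 354 to 366 CPM in soft and 389 to 414 in stiff, so the groups did not overlap, and all 12 were detected. Myeloid markers summed to 267 to 325 and 309 to 317 CPM, with all 12 detected, PTPRC, MPO and ELANE included. Fibroblast markers (10 of 10 detected) summed to 352 to 373 and 369 to 379, and endothelial markers (7 of 7 detected) to 245 to 279 and 263 to 280. Per kb of exon the median count of the squamous list was 20.1, of the myeloid list 22.8, of the fibroblast list 9.58 and of the endothelial list 14.3. By edgeR 4 of 12 squamous markers had an unadjusted p under 0.05, all higher in stiff: KRT5, KRT14, KRT17 and DSP. The other lists had 1 of 12 (myeloid), 0 of 10 (fibroblast) and 1 of 7 (endothelial), where all genes gave 9.51%. The single marker past the threshold was KRT14, the basal type I keratin, where 0.451% of all genes passed. KRT14 stood at 20.6 ± 3.80 CPM in soft and 33.4 ± 6.17 in stiff (SD, n = 3 each, log2 fold change 0.69, edgeR adjusted p = 0.0281). KRT14 lost that call in 9 of 18 alternative fits, over adjusted p of 0.0130 to 0.496, among them 4 fits that left out 1 library: soft replicate 1 (adjusted p = 0.158), replicate 3 of the same group (0.1096), stiff replicate 1 (0.137) and replicate 2 of that group (0.320).

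Nearly every member was detected, in each library and at low counts. Mean counts over the 6 libraries ran from 1.67 for LCE3B to 74.0 for PGLYRP4, and 39 of 49 members had a mean of 10 or more. Zero counts were seen for 2 members only, LCE3B in soft replicate 2 and LCE3C in soft replicates 2 and 3. Detection did not set the members apart from olfactory receptor genes, which serve smell. Of 383 such protein-coding genes, 0 had no count in every library. The filter on low counts used for the tests kept 321 of them, beside 38 of 49 members. Counts followed gene length. Across the 49 members the log2 mean count and the log2 exon length had r = 0.65 and rho = 0.57, as a description of genes that share libraries and a region. Lengths are those of GENCODE and may differ from those the authors counted on.

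**Figure D1:**
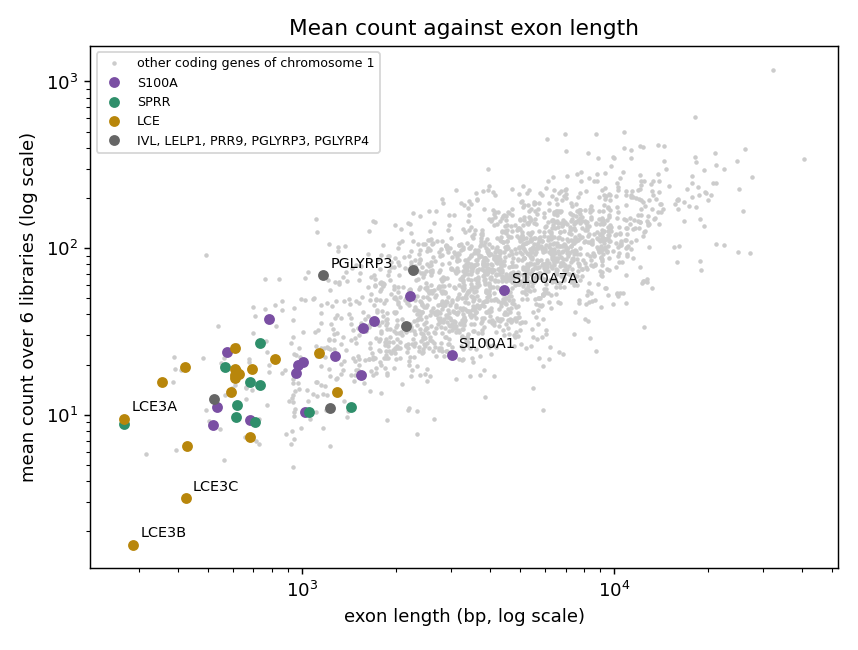
Mean count over 6 libraries against exon length in bp, both on log scales, for the 49 members (coloured by family) and the other protein-coding genes of chromosome 1 (grey). LCE3B (1.67 counts) and LCE3C (3.17) lie lowest among the members.

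The families lay in 1 range per kb of exon, with the highest median that of the LCE genes. The median over members was 20.8 counts per kb, with 19.5 for S100A, 19.5 for SPRR and 27.2 for LCE genes. Protein-coding genes of chromosome 1 had a median of 15.998 over 1997 genes, with 11.5 and 23.3 as quartiles, and 33 members stood above that median and 16 below it. Protein-coding olfactory receptor genes, which serve smell and have no known part in the cornified envelope, had a median of 11.3 over 383 genes. GC content differs between these sets, with medians of 54.7% for the members and 57.5% for LCE genes. Coding genes of chromosome 1 had 49.7% and olfactory receptor genes 43.7%. Across the 49 members GC content and counts per kb had r = 0.30 and rho = 0.27, as a description. The part of GC content in the levels was not tested.

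As a mean over both groups, the highest levels per kb were those of PGLYRP3 (59.0), S100A5 (47.8), LCE1A (45.8), LCE1F (43.9), S100A9 (41.3) and LCE3E (40.9). The lowest were LCE3B (5.79), LCE3C (7.45), S100A1 (7.54), SPRR3 (7.75) and PRR9 (8.95). Exon lengths are not alike in kind: LCE1F has 357 bp of exon, its coding length alone, where LCE1C has 692 bp over the same coding length. LCE3A, LCE3B and SPRR1A also have an exon length equal to their coding length. The ranks of these genes per kb depend on that. The mean count was 15.7 for LCE1F and 18.8 for LCE1C. The order differed between the groups: LCE1A had 61.6 in soft and 30.02 in stiff, LCE1F 53.2 and 34.5, S100A9 31.8 and 50.8, and PGLYRP3 61.4 and 56.6. S100A10, S100A11 and S100A6, which many epithelial cells are known to make in quantity, had 11.2, 13.7 and 20.4 counts per kb. Libraries of 1 member spread widely around these means. S100A10 ran from 6.48 to 16.9 counts per kb and S100A11 from 10.3 to 16.2, which overlaps the range of LCE1E (6.16 to 14.6) and of SPRR2A (2.82 to 21.2). LCE5A, at 20.8 to 35.4, stood above S100A10 and S100A11 in every library.

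**Figure D2:**
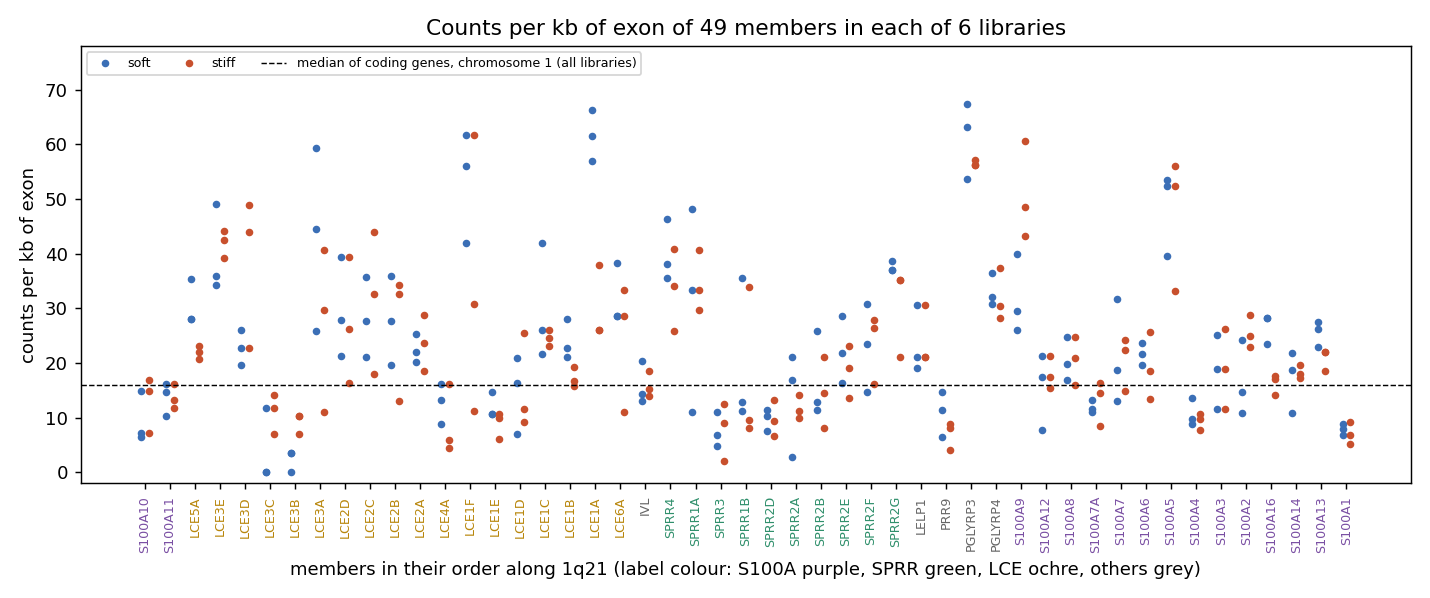
Counts per kb of exon (linear axis) of each member in each library, in chromosomal order; blue points are soft and orange points stiff libraries, and the dashed line is the median of 1997 protein-coding genes of chromosome 1 (15.998). LCE, SPRR and S100A genes lie side by side in 1 range, and LCE3B and LCE3C have soft libraries at 0 and reach 10.4 and 14.1 in stiff ones.

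LCE3B and LCE3C had lower levels than the other LCE3 genes, more so in soft than in stiff libraries. These adjacent genes lie within 13.9 kb, between LCE3D and LCE3A. LCE3B had 1, 0 and 1 counts in the soft group, given here and throughout by replicate number, and 3, 2 and 3 in the stiff group. LCE3C had 5, 0 and 0 in soft and 3, 6 and 5 in stiff. A count of 0 allows up to 3 counts, or 10.4 counts per kb for LCE3B and 7.06 for LCE3C. Together they held 3.27 counts per kb in soft and 10.3 in stiff libraries, where LCE3A, LCE3D and LCE3E together held 33.5 and 37.9. In stiff libraries PRR9 (7.05), S100A1 (7.15) and SPRR3 (7.86) were lower per kb than LCE3B (9.26) and LCE3C (10.98). LCE3A, of 270 bp against 288 bp for LCE3B, had 7, 12 and 16 counts in soft and 3, 11 and 8 in stiff. None of the windows of LCE3B, LCE3C and LCE3A was shared with another transcript, and their coding GC content was 64.6%, 63.5% and 64.8%. This set was picked out after its values were seen and has no test. In stiff libraries both genes had more counts than in soft in all but the comparison with soft replicate 1 for LCE3C. Neither passed the filter on low counts, and without that filter edgeR gave adjusted p = 0.645 for LCE3B and 0.595 for LCE3C.

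Between stiff and soft Matrigel no member passed the threshold. The filter on low counts kept 38 of 49 members: 14 S100A, 13 LCE, 6 SPRR and all 5 single genes. edgeR's quasi-likelihood test called 0 of the 38 at an adjusted p under 0.05, against 0.451% of 31074 genes tested (0.286% higher and 0.164% lower in stiff), and the lowest adjusted p was 0.219. limma-voom and DESeq2 without its filter on mean count also called 0, and DESeq2 with that filter gave none of the 38 an adjusted p. An unadjusted p under 0.05 was seen for 5 of 38 (13.2%), 3 higher and 2 lower in stiff, where all genes gave 9.51% (5.01% higher, 4.5% lower). CPM values of the groups did not overlap for 6 of 38 (15.8%), 2 higher and 4 lower in stiff, where all genes gave 14.1% (7.38% higher, 6.76% lower). Both shares lie near the background of all genes.

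The precision set by these counts was low. Standard errors of log2 fold changes ran from 0.17 to 0.45 with a median of 0.33, and the 95% interval of 10 members reached beyond a 2-fold difference in 1 direction. Within groups, counts of the members varied with a median chi-square of 1.23 per degree of freedom. Counting error alone gives a mean of 1 and a median under 1. PGLYRP3 and PGLYRP4 were the best measured. PGLYRP3 had 74, 79 and 63 counts in soft and 66, 67 and 66 in stiff, and its log2 fold change of −0.04 had a 95% interval of −0.38 to 0.30. PGLYRP4 had 83, 70 and 73 counts in soft and 69, 85 and 64 in stiff, an interval of −0.31 to 0.35. For these 2 genes a 2-fold difference lies outside the interval.

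**Figure D3:**
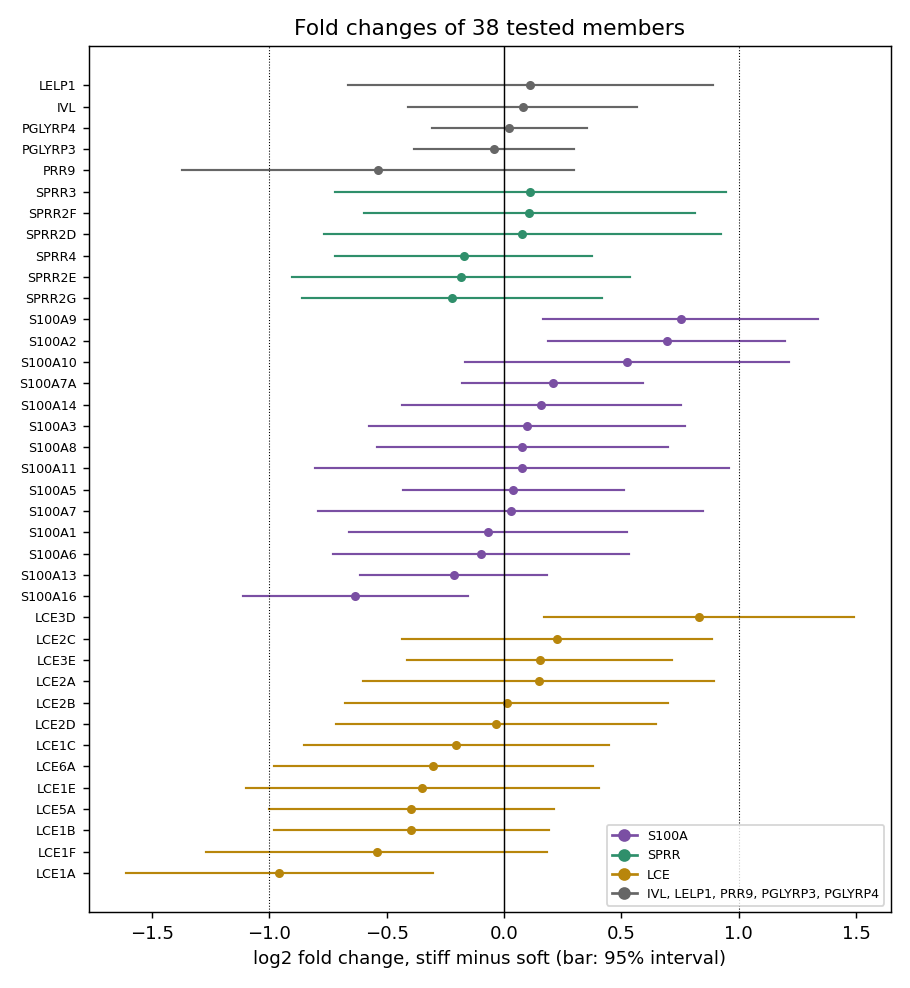
Log2 fold change (stiff minus soft) of the 38 members tested, with its 95% interval from the edgeR fit; dotted lines mark 2-fold in either direction. Intervals of 33 members cross 0, and those of LCE1A, LCE3D, S100A2, S100A9 and S100A16 do not, all before adjustment.

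Among S100A genes the members moved in both directions. Their median log2 fold change was 0.08, with 10 of 14 above 0, beside a median of −0.00484 and 49.1% above 0 over all genes; scaling by library totals alone put it at −0.19, where all genes had −0.27. Summed over the 16 genes they stood at 153, 136 and 151 CPM in soft and 159, 149 and 159 in stiff, a ratio of 1.06. The groups overlapped.

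S100A9, the larger calprotectin subunit, had 15, 23 and 17 counts in soft and 35, 25 and 28 in stiff. Scaled to CPM these were 5.50, 8.33 and 6.41 against 14.4, 9.38 and 10.6, so every stiff library was above every soft one. The log2 fold change was 0.75 ± 0.30 (SE, n = 3 per group), with an unadjusted p of 0.0120 and an edgeR adjusted p of 0.325. Its partner S100A8 had 20, 17 and 25 counts in soft and 25, 16 and 21 in stiff, with overlapping groups at 7.64 ± 1.66 and 8.09 ± 2.14 CPM (SD). S100A12, the third myeloid-type S100A gene of this region, had 4, 11 and 9 counts in soft and 11, 8 and 9 in stiff, and did not pass the filter. Myeloid markers overlapped between the groups as a sum, with 0 of 12 past the threshold, and ELANE had the lowest p of that list (21.02 and 30.1 CPM, adjusted p = 0.206). Their part in the S100A9 value was not tested.

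S100A2, a p63 target of basal keratinocytes, had 38, 17 and 23 counts in soft and 36, 45 and 39 in stiff. In CPM these were 13.9, 6.16 and 8.67 against 14.8, 16.9 and 14.8. The groups did not overlap, but soft replicate 1 lay within 1 CPM of the lowest stiff library. The log2 fold change was 0.69 ± 0.26 (unadjusted p = 0.00736, adjusted p = 0.269), and it was 0.45 to 1.07 as 1 library at a time was left out. S100A16 went the other way, with 48, 48 and 40 counts in soft and 29, 24 and 30 in stiff. Its CPM values were 17.6, 17.4 and 15.1 against 11.9, 9.01 and 11.4, so all stiff libraries were below all soft ones. The log2 fold change was −0.63 ± 0.24 (unadjusted p = 0.00958, adjusted p = 0.297), and under library totals alone it was −0.90 with an edgeR adjusted p of 0.00827. That fit had a median of −0.27 over all genes, and 4163 of its 4194 calls were lower in stiff. It put S100A2 at 0.42 (adjusted p = 0.250) and S100A9 at 0.49 (0.253), both lower than in the main fit.

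**Figure D4:**
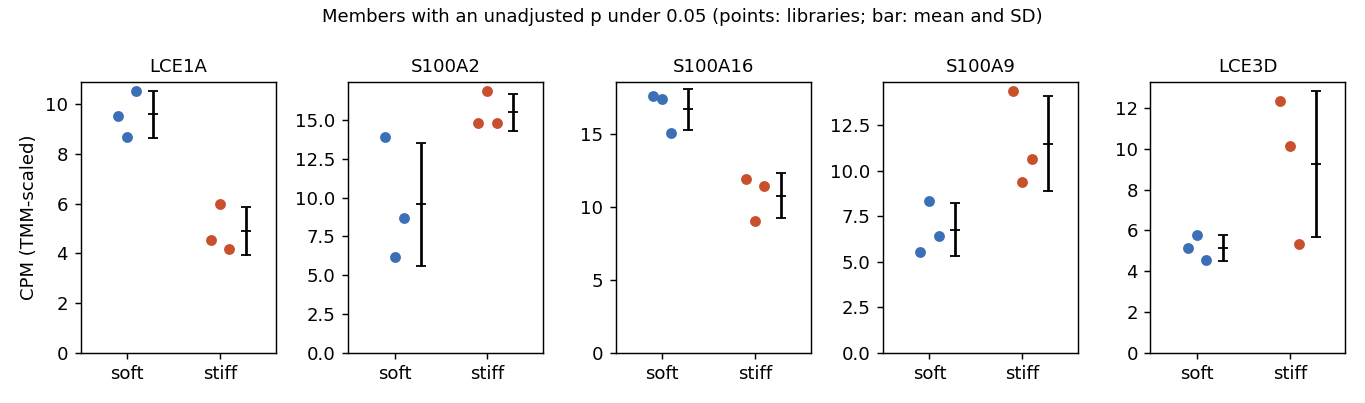
TMM-scaled CPM of the 5 members with an unadjusted p under 0.05, by library (points, replicates 1 to 3 from left to right) with mean and SD (bar), each axis starting at 0. Groups are apart for LCE1A, S100A2, S100A16 and S100A9, and overlap for LCE3D (4.52 to 5.80 CPM in soft, 5.32 to 12.3 in stiff).

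The other S100A genes tested had an unadjusted p above 0.05. S100A13, whose span holds S100A1 and which shares 24.0% of its windows, had 61, 58 and 51 counts in soft and 41, 49 and 49 in stiff, 20.9 ± 1.58 and 17.96 ± 0.963 CPM, with groups that did not overlap and an adjusted p of 0.798. S100A1, a calcium sensor known from muscle, had 24, 21 and 27 counts against 28, 21 and 16. S100A7A had the most counts of the family, at 52, 49 and 59 in soft and 38, 73 and 65 in stiff; S100A7 had 17, 7 and 10 against 8, 13 and 12. S100A5 stood at 14.0 ± 2.35 and 14.5 ± 4.28 CPM. S100A6 (calcyclin) stood at 7.75 ± 0.896 and 7.20 ± 2.12 CPM, S100A14 at 8.13 ± 2.72 and 9.07 ± 0.610, and S100A3, a protein of the hair cuticle, at 6.51 ± 2.34 and 6.92 ± 2.43. S100A4, known from motile and mesenchymal cells, had the fewest counts of these beside S100A11 and S100A12, at 14, 9 and 10 in soft and 8, 11 and 10 in stiff. S100A4 did not pass the filter and was not tested. S100A10 varied most within groups, with 23, 10 and 11 counts in soft and 26, 11 and 23 in stiff, a chi-square of 3.64 per degree of freedom. S100A11 had 10, 7 and 11 counts against 11, 8 and 9.

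LCE genes were called in neither direction. Their median log2 fold change was −0.20, with 5 of 13 above 0, beside −0.00484 and 49.1% over all genes. Over the alternatives it ranged from −0.47 under library totals alone, where all genes had −0.27, to −0.00164. After an offset for GC content the LCE median was −0.30. All 18 together stood at 103, 112 and 103 CPM in soft and 95.4, 99.1 and 96.2 in stiff, a ratio of 0.917 with groups that did not overlap; scaling by library totals put the ratio at 0.763. LCE genes are rich in GC, and over 18750 protein-coding genes GC content and log2 fold change had r = 0.21 and rho = 0.22. Among the 38 members tested the sign was the opposite, at r = −0.21 and rho = −0.10, as a description of genes that share libraries.

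LCE1A had the lowest p of all members. Its libraries held 26, 24 and 28 counts in soft and 11, 16 and 11 in stiff, or 9.54, 8.69 and 10.6 CPM against 4.52, 6.01 and 4.18. Every stiff library lay below every soft one, at a log2 fold change of −0.96 ± 0.33 (unadjusted p = 0.00439, edgeR adjusted p = 0.219). Under library totals alone, where the median of all genes was −0.27, it was −1.22 with an edgeR adjusted p of 0.00867. Of the windows of LCE1A, 12.7% were shared with LCE1B, LCE1C, LCE1D or LCE1E. LCE1B had 24, 32 and 26 counts in soft and 22, 18 and 19 in stiff, LCE1F 22, 20 and 15 against 11, 4 and 22, and LCE1C 18, 29 and 15 against 16, 18 and 17. Summed over the 6 LCE1 genes, a set looked at after their values were seen and not tested, soft libraries held 113, 131 and 101 counts and stiff ones 72, 80 and 88. LCE2 genes, next to them on the chromosome, summed to 60, 69 and 68 against 52, 71 and 76.

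LCE3D was the one LCE gene with a low p upwards. It had 14, 16 and 12 counts in soft and 30, 27 and 14 in stiff, so stiff replicate 3 lay in the soft range. Of the windows of LCE3D, 12.1% were shared with LCE3E. The log2 fold change was 0.83 ± 0.34 (unadjusted p = 0.0139, adjusted p = 0.340), or 0.57 under library totals alone (edgeR adjusted p = 0.238). Without stiff replicate 3 it was the 1.11 that tops its range over left-out libraries, which began at 0.58. Its near-copy LCE3E had 30, 21 and 22 counts in soft and 26, 27 and 24 in stiff. LCE5A, with 23, 29 and 23 against 19, 18 and 17 counts, had groups that did not overlap at an adjusted p of 0.740. LCE1D (2.32 and 2.56 CPM) and LCE4A (3.21 and 2.31 CPM) were the lowest LCE genes after LCE3B and LCE3C, and both fell under the filter.

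SPRR genes showed 0 of 6 tested members with an unadjusted p under 0.05 and 0 with groups apart. All genes gave 9.51% and 14.1%, so counts of 0 among so few genes do not set the family apart. The median log2 fold change of the SPRR genes was −0.05 with 3 of 6 above 0, beside −0.00484 and 49.1% over all genes. It ran from −0.31 under library totals, where all genes had −0.27, to 0.04. The 10 genes summed to 57.6, 56.5 and 45.6 CPM in soft and 54.3, 50.7 and 47.5 in stiff, which overlap. SPRR4, the SPRR gene with the most counts, had 28, 26 and 34 in soft and 30, 25 and 19 in stiff. SPRR2G had 21, 21 and 22 against 20, 20 and 12, SPRR2F 21, 16 and 10 against 18, 19 and 11, and SPRR2E 21, 16 and 12 against 10, 17 and 14. As 1 set, which depends on whether shared reads were counted but not on how they were divided between its copies, the 6 SPRR2 genes held 98, 89 and 64 counts in soft and 83, 82 and 59 in stiff.

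SPRR1B, a squamous differentiation marker, varied most of all members within groups. It had 8, 22 and 7 counts in soft and 5, 6 and 21 in stiff, a chi-square of 6.26 per degree of freedom, with 1 high library on each side. SPRR1A had 13, 3 and 9 counts against 11, 9 and 8, and SPRR3, an esophageal form, 10, 16 and 7 against 3, 13 and 18. The lowest SPRR genes were SPRR2A at 3.53 and 3.23 CPM and SPRR1A at 3.08 and 3.65 CPM in soft and stiff.

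IVL, which encodes involucrin, the early scaffold of the cornified envelope, had 31, 44 and 28 counts in soft and 40, 33 and 30 in stiff. These were 12.6 ± 2.90 and 13.4 ± 2.67 CPM, with overlapping groups, and the 95% interval of the log2 fold change was −0.41 to 0.57. LELP1, a late cornified envelope-like proline-rich gene, had 10, 16 and 11 counts in soft and 11, 16 and 11 in stiff. PRR9, a proline-rich gene of the same region, had 8, 18 and 14 in soft and 11, 5 and 10 in stiff, at an adjusted p of 0.743.

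Each list of other genes of the same programme stands beside shares over all genes of 0.451% past the threshold and 9.51% at an unadjusted p under 0.05. Of the fused S100 genes between S100A11 and LCE5A, which carry an S100 domain on a long repeat protein, 1 of 7 passed the threshold. It was HRNR (hornerin; chromosome 1, 152212076 to 152224193), which fell from 94.99 ± 12.3 to 62.8 ± 9.24 CPM (SD, n = 3 each; log2 fold change −0.59, adjusted p = 5.79e-05), a call kept in all 19 alternative fits. FLG, which encodes filaggrin, stood at 52.6 and 56.8 CPM and TCHH, trichohyalin, at 76.6 and 82.4. Cornified envelope genes outside the cluster had 0 of 22 tested past the threshold by edgeR and 2 at an unadjusted p under 0.05. These were DSP, the desmosomal plaque protein desmoplakin (68.6 ± 2.71 and 88.3 ± 3.04 CPM, adjusted p = 0.0835), and CDSN, the corneodesmosome protein (22.9 ± 2.21 and 16.2 ± 4.80 CPM, adjusted p = 0.366). KAZN and EVPL, the most abundant of that list, stood at 154 and 162 and at 124 and 137 CPM.

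The same 0.451% and 9.51% of all genes stand beside the next lists. Partners and receptors of S100 proteins had 0 of 12 past the threshold and 2 at an unadjusted p under 0.05. These were SLC1A5, a glutamine transporter (44.8 and 57.4 CPM, adjusted p = 0.228), and TLR4, a receptor for calprotectin (63.2 and 52.7 CPM, adjusted p = 0.452). AHNAK, the most abundant of them, stood at 98.3 and 103 CPM. ANXA2, the partner of S100A10, stood at 31.5 and 32.1 CPM, and AGER, the RAGE receptor, at 15.1 and 15.5. Transcription factors known to act on the region in keratinocytes had 0 of 17 past the threshold and 2 at an unadjusted p under 0.05, among them ZNF750 (25.9 and 33.2 CPM, adjusted p = 0.442). MAF and OVOL1, the most abundant of them, stood at 159 and 172 and at 80.7 and 70.7 CPM. Of the S100 genes on other chromosomes, S100B stood at 13.1 and 12.4 CPM and S100Z at 19.8 and 20.5, and S100P and S100G, at 3.56 and 2.33 and at 2.46 and 1.67 CPM, did not pass the filter.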

How the data were processed

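The deposited values were raw counts per gene symbol in 1 table, made by the authors with no normalization. FastQC 0.11.7, Trim Galore 0.4.2, cutadapt 1.9.1, STAR 2.6.1e, featureCounts 1.6.2 and DESeq2 1.26.0 with build hg38 are named, without roles, in the submitters' processing notes. Libraries were directional, per the labels' protocols. The annotation, the strand setting of the counting and its treatment of multi-mapped reads are not given in the sources used here. Reads were pairs of 61 bp, per the labels' protocols.

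All genes entered a test of stiff minus soft in edgeR 4.0.16 under R 4.3.3: filterByExpr, TMM, robust quasi-likelihood fits, two-sided tests, Benjamini-Hochberg adjustment over 31074 genes and a threshold of 0.05. The filter took out 11 members. The SE is the absolute log2 fold change over the square root of F. DESeq2 1.42.0 and limma 3.58.1 (voom) were alternatives. The procedure was tested on simulated counts with a fixed dispersion for all genes, which does not measure its power at the low counts of the members. Exon lengths and GC content came from GENCODE release 29, which matched all 49 members. Replicate numbers are those of the titles; the description of stiff replicate 1 carries the number 2.

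The members and lists were chosen with earlier results of these data known. Named were members past the threshold or with an unadjusted p under 0.05, the 4 highest and 2 lowest of each family, the single genes and near-identical pairs, S100A genes for their counts, and, of each list, genes past either threshold and the 2 most abundant; 1 gene of these lists is not reported here. Other genes named for their levels or spread were chosen after their values were seen. Of the 49 members 0 lack a RefSeq match. Without molecular identifiers, PCR copies count as separate reads, so limits from counts cover counting error only.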

Additional observations from a re-analysis of the deposited data

How the results depend on the processing

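Library totals alone called 2 members, LCE1A and S100A16, with the median of all genes at −0.27. The count was 0 under 18 other settings, the sum of near-identical copies (added after seeing the data) and each left-out library among them. DESeq2 with its filter gave the 38 members no adjusted p and so no count. Calls over all genes numbered 140, and 4194 under library totals alone, 67 with DESeq2, 43 without its filter on mean count, 91 with limma-voom, and 60 to 136 with 1 library left out. Over protein-coding genes, also added after seeing the data, the fit without an offset made 102 calls, one with an offset for GC content 36, and one with the offset and the replicate block 37. The planned offset over all genes was not run, since GC was known for 74.3% of them, under the 80% set for it. The ratios of summed CPM, stiff over soft, moved under library totals to 0.884 for S100A, 0.792 for SPRR, 0.763 for LCE and 0.825 for the single genes. With 1 library left out they ran from 1.02 to 1.09, 0.891 to 0.995, 0.904 to 0.944 and 0.957 to 1.04. The cause of these moves was not tested, beyond the smaller number of libraries or genes in some fits. Members at an unadjusted p under 0.05 numbered 3 to 6 over the alternatives. The replicate number as a block gave 173 calls over all genes and 0 among members. Deviations of same-numbered libraries had correlations of −0.00363 to 0.00346, and those of differently numbered pairs −0.00793 to 0.00529. Each deviation was taken from the mean of the 3 libraries of its group, and how far counting noise lowers such correlations was not measured. These correlations therefore cannot tell whether same-numbered samples share more than a number. CPM values without length are another unit than counts per kb and were not set beside them. Depth is one limit: the mean counts of the members had a median of 17.3.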

Other observations

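SPRR2C, which RefSeq lists as a transcribed pseudogene and which was left out of the members, had 14, 16 and 9 counts in soft and 5, 17 and 10 in stiff libraries. Over its 219 bp of exon this came to 54.0 counts per kb, above every member but PGLYRP3 (59.0). That length equals the coding length alone of SPRR2A, whose exons come to 709 bp, so the value per kb is not on a like length. The mean count of SPRR2C, 11.8, lay within the range of the SPRR2 members, from 9.00 for SPRR2A to 19.3 for SPRR2G. Its groups overlapped, at 4.77 ± 1.24 and 4.08 ± 2.18 CPM (SD, n = 3 each).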
